A study of Homo sapiens with 6 samples.

Results

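Tumour cells carry surface proteins that hold off T cells, natural killer cells, phagocytes and complement, and 9 genes for such proteins were followed here through depletion of UBE3D. The members were listed by name: CD274, PDCD1LG2, CD276, PVR, PVRL2 (the older symbol of NECTIN2), CD47, NT5E, CD55 and CD59. All 9 were found among the 20115 genes of the authors' deposited gene table. Regions of transcription past the annotated gene end, called downstream-of-gene (DoG) regions, were listed for CD55 and CD59, which are 2 of the 2014 regions in the authors' deposited DoG table. RNA came from MDA-MB-231, a human triple-negative breast cancer cell line, in 3 libraries of UBE3D knockdown cells and 3 libraries of control cells. The knockdown cells held lentiviral hairpins against UBE3D that were switched on with doxycycline. The sources used here do not give the hairpin of the control cells, their doxycycline status or the length of induction. UBE3D was reported to bind CPSF73, the enzyme that cuts nascent messenger RNA at its 3' end, and the series title concerns that enzyme in migration and invasion.

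The tables hold 1 comparison, knockdown over control, with no value per library, so neither the spread within a group nor overlap between groups can be shown. The libraries of each group are numbered rep1 to rep3 and labelled as pooled, with no separate cultures named, and the p-values therefore reflect library-to-library spread that may be technical. Sequencing depth is unknown. Log2 fold changes in the authors' deposited tables are shrunken toward 0, and all differences below are on that scale, with a change counted at an adjusted p under 0.05 over the whole table. For UBE3D itself, the target of the hairpins, the authors' deposited table gives a fall of 1.74-fold (log2 fold change -0.80 with an SE of 0.37, adjusted p = 0.00632 by DESeq2) at a mean of 36.7 normalized counts. That call was lost in a Wald test on the deposited change and SE (adjusted p = 0.295), a test that can only weaken calls here because the deposited changes are shrunken. In the authors' deposited table the mean was 7835 normalized counts for VIM and 8692 for CD44, both high in this line, 22.2 for ESR1 and 50.2 for PGR, the hormone receptor genes, and 758 for ERBB2. Of 10 markers of the line, 4 were lower on knockdown in the authors' deposited table and 1, CAV1 (-1.68), was still called in the Wald test. Of 17 markers of leukocytes and endothelial cells 16 were listed, with means from 11.9 to 89.4 normalized counts, PTPRC at 43.7. In the authors' deposited table, by DESeq2, 0 of these 16 passed, 2 had an unadjusted p under 0.05, and 0 passed the Wald test. The part of these markers in the results below was not tested. The levels of genes with a mean in the range of these markers, UBE3D (36.7) among them, were not told apart from background. In bulk RNA, fewer cells with a transcript and less of it per cell cannot be told apart.

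CD274 (PD-L1) and PDCD1LG2 (PD-L2) bind the receptor PD-1 on T cells and dampen their activation, and CD276 (B7-H3) belongs to the same B7 family. PVR and PVRL2 are nectin-family proteins that bind the activating receptor CD226 and the inhibitory receptor TIGIT on T and natural killer cells. CD47 binds SIRPA on phagocytes and restrains engulfment, and NT5E (CD73) turns extracellular AMP into adenosine, which acts on immune cells. CD55 speeds the decay of complement convertases, while CD59 blocks assembly of the membrane attack complex. NT5E, CD55 and CD59 are held in the membrane by a glycosylphosphatidylinositol (GPI) anchor.

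Of the 9 genes, 2 rose and 3 fell in the authors' deposited table, and 4 did not pass the threshold. The share called was 55.6%, against 12.5% of all genes in the table (4.62% raised and 7.93% lowered). At a minimum mean of 100 normalized counts, which 8 of the 9 members reach, 19.8% of genes were called. In the Wald test 1 member rose and 2 fell, with 6.05% of all genes called. The members' median log2 fold change was -0.11, and that of all genes was -0.03. CD55 rose and CD59 did not pass. PVRL2 rose and PVR did not pass. PDCD1LG2 fell and CD274 did not pass. Whether the genes of each of these pairs differ was not tested.

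**Figure D1:**
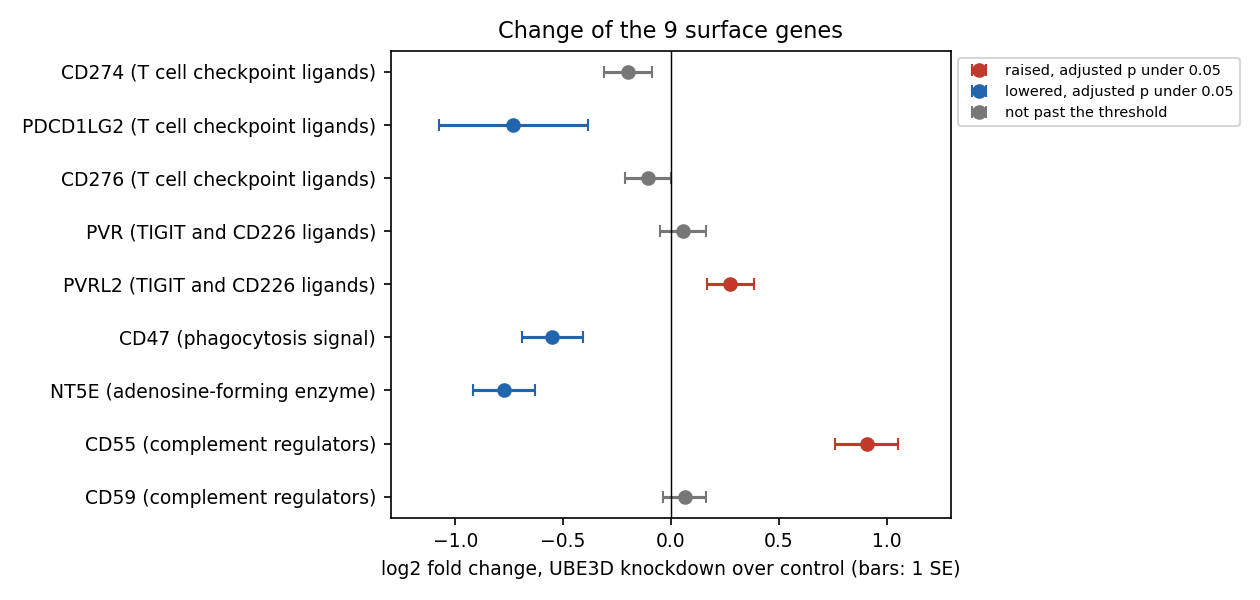
Log2 fold change of each of the 9 surface genes, UBE3D knockdown over control, with 1 SE as bars, from the authors' deposited table. CD55 (0.91) and PVRL2 (0.28) lie above 0 and NT5E (-0.77), PDCD1LG2 (-0.73) and CD47 (-0.55) below it, all past the threshold, while the other 4 lie within 0.20 of 0.

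The sequences shown first lie in the 3' untranslated region (UTR), the part of the transcript where CPSF73 cuts and where small RNAs bind. Over all genes of these tables, the 7-base word GATTGAA in the 3' UTR goes with falls and CTTATCT with rises, a pattern known from earlier work on these data. Both words were picked for that pattern, so the shares and matches given here are descriptions and not independent evidence. The shares were not matched for 3' UTR length. Taking the 9131 genes whose mean reached 100 and whose 3' UTR is annotated, 30.9% of the 1033 that hold GATTGAA fell, against 10.3% of the 8098 that lack it, by the authors' deposited calls. Of the 1139 that hold CTTATCT, 14.7% rose, against 6.26% of the 7992 that lack it. The sources used here give no hairpin sequence, and a match of the words to a hairpin was not tested. In the longest annotated 3' UTR of each member (GENCODE 29, GRCh38), searched on the transcript strand, CD47 holds GATTGAA at 2 places and CD55 and PVRL2 hold CTTATCT at 1 place each. The other 6 members hold neither. The sites lie 970 and 1137 bases after the stop codon in CD47, 61 bases after it in CD55 and 204 bases after it in PVRL2. The windows span chr3:108046296-108046325 and chr3:108046129-108046158 (minus strand), chr1:207359660-207359689 (plus strand) and chr19:44888572-44888601 (plus strand). Capitals mark the word.
CD47 site nearer the stop codon: gaaaaaagcaaGATTGAAatttgaactatg
CD47 site farther from the stop codon: ccttcccctatGATTGAAaagtaaacaaaa
CD55 site: agtttcttagaCTTATCTgcatattggata
PVRL2 site: atcctggcaacCTTATCTcatgaggcagga
CD47 is among the 3 lowered members, and CD55 and PVRL2 are the raised ones. NT5E and PDCD1LG2 fell with neither word in the searched 3' UTR.

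The annotated 3' ends are shown for the changed members because the study concerns cleavage at these sites. A poly(A) hexamer, AATAAA or ATTAAA, lies in the last 50 bases of the longest 3' UTR in 7 of the 9 members and in 79.7% of the 9131 genes above. PVRL2 and CD59 have neither hexamer there. The last 30 bases are given 5' to 3' with the hexamer in capitals, from chr1:207360937-207360966 (CD55, plus strand), chr3:108043094-108043123 (CD47, minus strand), chr6:85495762-85495791 (NT5E, plus strand) and chr9:5571225-5571254 (PDCD1LG2, plus strand).
CD55 end: tcttaaAATAAAactttttttcctccttaa
CD47 end: agagttttaATTAAAagttttaaatcagtc
NT5E end: acAATAAAattgaagataagctctttggtc
PDCD1LG2 end: aaagAATAAAactcaattgttattcttcaa
The searched 3' UTR is 1356 bases long in CD55, 4190 in CD47, 1787 in NT5E, 1295 in PDCD1LG2 and 7116 in CD59, against a median of 1538 bases over the 9131 genes. CD47 holds 5 AATAAA and 5 ATTAAA hexamers in that stretch and CD55 holds 5 AATAAA. The CD55 end shown is that of the transcript with the longest 3' UTR, and the annotated gene runs on to base 207386804. In CD47, NT5E and PDCD1LG2 the end shown is also the annotated gene end. The tables do not show which ends were used.

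Levels are given as the mean in the authors' deposited table, over all 6 libraries, per kilobase of annotated exon. The length takes the exons of all annotated transcripts of a gene together, so exons not used in these cells would lower the value. NT5E was highest, at 749 normalized counts per kb, followed by PVR at 417 and CD59 at 366. CD55 (188), PVRL2 (174) and CD47 (160.5 normalized counts per kb) stood close together. CD274 had 90.2 and CD276 had 74.1 normalized counts per kb, and PDCD1LG2 was lowest at 19.6. The spread of these levels and the transcripts in use are not known, so the order is a description.

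**Figure D2:**
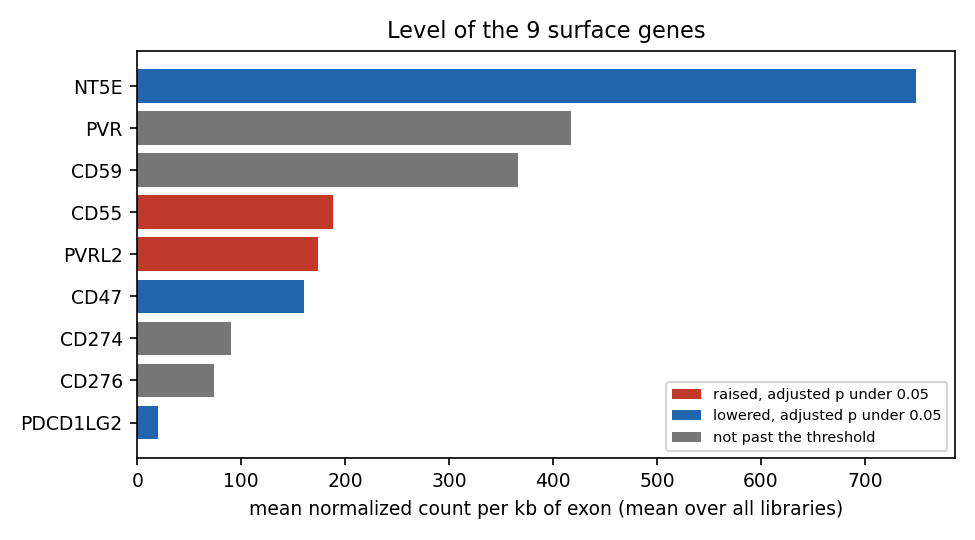
Mean normalized count per kb of annotated exon over all libraries for each gene, as bars from 0, coloured by its call. NT5E is highest at 749 and PDCD1LG2 lowest at 19.6 normalized counts per kb, and the called genes stand at both ends of the order.

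CD274, on chromosome 9 (5450503 to 5470566, GRCh38), did not pass. The authors' deposited table gives it a mean of 370.4 normalized counts and a log2 fold change of -0.20 (SE 0.11, 95% interval -0.42 to 0.02, adjusted p = 0.141 by DESeq2, unadjusted p = 0.0271). PDCD1LG2, which lies 40003 bases past the end of CD274 on the same strand (5510570 to 5571254), fell 1.66-fold in the authors' deposited table. At a mean of 46.3 normalized counts, the authors' deposited table gives PDCD1LG2 a log2 fold change of -0.73 with an SE of 0.34 (95% interval -1.41 to -0.06, adjusted p = 0.00836 by DESeq2). That mean lies within the range of the leukocyte and endothelial markers (11.9 to 89.4), so the level of PDCD1LG2 was not told apart from background. The median SE of 1468 genes with a similar mean (within 25%) was 0.25, and the SE of PDCD1LG2 is the largest of the 9. The call was lost in the Wald test on the deposited change and SE (adjusted p = 0.327). CD276 lies on chromosome 15 (73683966 to 73714518) and did not pass: the authors' deposited table gives it -0.11 (SE 0.11, 95% interval -0.32 to 0.10, adjusted p = 0.478 by DESeq2) at a mean of 410.4. Its interval leaves room for a small change either way.

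Among 15 measured genes of 18 other checkpoint and costimulatory ligands, 0 passed by DESeq2 in the authors' deposited table, 2 had an unadjusted p under 0.05, and 0 passed the Wald test. The smallest p-values were those of TNFRSF14, the ligand of BTLA (log2 fold change -0.33, SE 0.31, adjusted p = 0.16), and TNFSF9, the ligand of 4-1BB (0.27, SE 0.22, adjusted p = 0.193), in the authors' deposited table. The list is of low abundance, with 3 genes at a mean of at least 100 normalized counts. Among 27 regulators of CD274, 3 fell and 1 rose in the authors' deposited table, a share of 14.8% near the background, with a median log2 fold change of -0.02. CMTM4, which like CMTM6 keeps PD-L1 protein from being degraded, fell 2.93-fold in the authors' deposited table (log2 fold change -1.55, SE 0.15, adjusted p = 1.83e-23), and its 3' UTR holds GATTGAA. Of the 4 regulators with that word, CMTM4 is the 1 that fell. CMTM6 itself had -0.19 (SE 0.14, adjusted p = 0.228) in the authors' deposited table. IFNGR2, a chain of the interferon gamma receptor, was lower (-0.47, SE 0.18, adjusted p = 0.0067), as was SOCS1, an inhibitor of JAK signalling (-1.22, SE 0.66, adjusted p = 0.00428 at a mean of 16.7), in the authors' deposited table. Both calls were lost in the Wald test. ZDHHC3, a palmitoyltransferase known to modify PD-L1, rose by 0.55 (SE 0.09, adjusted p = 5.86e-10) in the authors' deposited table. It is the 1 that rose among the 5 regulators whose 3' UTR holds CTTATCT. The kinases JAK1 (0.01) and JAK2 (-0.02), which act below the interferon receptor, and the transcription factor IRF1 (-0.15) did not pass in the authors' deposited table (adjusted p from 0.318 to 0.975).

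PVR and PVRL2 lie on chromosome 19, 182591 bases apart and on the same strand (PVR 44643798 to 44663583, PVRL2 44846175 to 44889228). PVRL2 rose 1.21-fold in the authors' deposited table (log2 fold change 0.28, SE 0.11, adjusted p = 0.0199 by DESeq2) at a mean of 653 normalized counts. This is the smallest change among the called members, and 61.7% of 1502 genes with a similar mean had a larger SE. The call was lost at an adjusted p under 0.01 and in the Wald test (adjusted p = 0.14). PVR had a log2 fold change of 0.05 (SE 0.11, 95% interval -0.16 to 0.26, adjusted p = 0.757 by DESeq2) at a mean of 1466 in the authors' deposited table. Its annotated end overlaps CEACAM19 on the same strand over 1306 bases. CEACAM19 was higher (1.07, SE 0.46, adjusted p = 0.00277) at a mean of 55.4 in the authors' deposited table, and how reads of the overlap were assigned is not given in the sources used here. Of 11 other genes of the nectin family and its receptors, 2 fell and 1 rose in the authors' deposited table, with a median log2 fold change of -0.14. Called were 27.3% of the 11, against 12.5% of all genes, and 3 of the 11 reach a mean of 100. Of all genes with a mean of at least 100, 19.8% were called. CADM4, an adhesion protein of the nectin-like group, rose 3.42-fold (log2 fold change 1.77, SE 0.30, adjusted p = 3.66e-09) at a mean of 86.0 in the authors' deposited table. CADM1, a nectin-like ligand of the lymphocyte receptor CRTAM, fell 3.06-fold in the authors' deposited table (-1.61, SE 0.50, adjusted p = 0.000163 by DESeq2) at a mean of 36.0. The means of CADM4 and CADM1 lie within the range of the leukocyte and endothelial markers (11.9 to 89.4). The 3' UTR of CADM1 holds both words. PVRL1, an adhesion protein and herpesvirus entry receptor, was lower (-0.52, SE 0.29, adjusted p = 0.0302, lost in the Wald test) in the authors' deposited table, and its 3' UTR holds CTTATCT. Of the 5 genes of this list that hold CTTATCT, 0 rose and 2 fell.

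CD47, on chromosome 3 (108043094 to 108091862), fell 1.46-fold. The log2 fold change of CD47 was -0.55 with an SE of 0.14 (95% interval -0.83 to -0.28, adjusted p = 8.27e-05 by DESeq2) in the authors' deposited table, at a mean of 1319.7 normalized counts. The call held in the Wald test (adjusted p = 0.00229). Of 820 genes with a similar mean, 7.93% had a larger change in either direction and 16.3% a larger SE. Among 12 genes for partners of CD47 and other signals read by phagocytes, 3 fell and 0 rose by DESeq2 in the authors' deposited table, where 6 had an unadjusted p under 0.05 and the Wald test called 2, both lower. THBS1, a secreted ligand of CD47, fell 2.45-fold (log2 fold change -1.29, SE 0.13, adjusted p = 7.04e-22) at a mean of 21397 in the authors' deposited table. QPCT, a glutaminyl cyclase, fell by 1.39 (SE 0.45, adjusted p = 0.000325) at a mean of 37.9 in the authors' deposited table. Its relative QPCTL, the enzyme known to modify the end of CD47 that SIRPA binds, had -0.17 (SE 0.13, adjusted p = 0.3) in the authors' deposited table. ADAM10, a protease that sheds surface proteins, fell by 0.34 (SE 0.15, adjusted p = 0.0237, lost in the Wald test) in the authors' deposited table. The 3' UTRs of 4 genes of this list hold GATTGAA, and the 3 that fell are among them, like CD47 itself. The word was picked from these same data, so this match is a description. B2M (-0.05) and CALR (-0.01), an inhibitory and an engulfment signal, did not pass in the authors' deposited table (adjusted p = 0.78 and 0.948).

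NT5E, on chromosome 6 (85449584 to 85495791), fell 1.71-fold, the lowest point estimate of the 9 and close to that of PDCD1LG2. For NT5E the log2 fold change was -0.77, the SE 0.14 (95% interval -1.05 to -0.50, adjusted p = 1.09e-07 by DESeq2) in the authors' deposited table, at a mean of 3394 normalized counts. Of 261 genes with a similar mean, 6.9% had a larger change in either direction. The call held in the Wald test (adjusted p = 2.63e-06). Among 18 measured genes of 20 in the extracellular nucleotide and adenosine pathway, 3 fell and 1 rose in the authors' deposited table, a share of 22.2%, with 10 genes at a mean of at least 100. ENPP1, which breaks down extracellular ATP and cyclic GMP-AMP, fell 1.81-fold in the authors' deposited table (log2 fold change -0.86, SE 0.14, adjusted p = 7.87e-10), and its 3' UTR holds both words. SLC29A1, a transporter that carries adenosine across the membrane, fell by 0.37 (SE 0.11, adjusted p = 0.000732) in the authors' deposited table. ADORA2B, an adenosine receptor, was lower (-0.31, SE 0.11, adjusted p = 0.00858), while ENTPD1 (CD39), which forms the AMP that NT5E consumes, was higher (0.34, SE 0.16, adjusted p = 0.0294) in the authors' deposited table. The calls of ADORA2B and ENTPD1 were lost in the Wald test (adjusted p = 0.0824 and 0.297).

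CD55, on chromosome 1 (207321376 to 207386804), rose 1.88-fold, the largest change of the 9. CD55 had a log2 fold change of 0.91 with an SE of 0.14 (95% interval 0.62 to 1.19, adjusted p = 8.22e-10 by DESeq2) in the authors' deposited table, at a mean of 1113 normalized counts. It ranked 270 of all genes by p-value, and 99.3% of genes had a lower log2 fold change in the authors' deposited table. The median SE of 1013 genes with a similar mean was 0.115, and 11.3% of them had a larger SE than CD55. CD59 lies on chromosome 11 (33703010 to 33736491). It did not pass, with a log2 fold change of 0.06 (SE 0.10, 95% interval -0.13 to 0.26, adjusted p = 0.695 by DESeq2) in the authors' deposited table, at a mean of 3792. Of 227 genes with a similar mean, 95.2% had a larger SE, so CD59 is among the more precisely measured genes of its level. CD46, another widely expressed membrane regulator of complement, was lower (-0.42, SE 0.16, adjusted p = 0.00598, lost in the Wald test with an adjusted p of 0.108) at a mean of 1478 in the authors' deposited table.

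Of 21 measured genes among 25 other complement genes, 3 rose and 6 fell in the authors' deposited table. That is 42.9% called by DESeq2, against 12.5% of all genes, and 8 of the 21 reach a mean of 100. The median log2 fold change was -0.03, with 1 call left in the Wald test. That 1 was C4BPB, a chain of the fluid-phase inhibitor C4b-binding protein, which rose by 0.70 (SE 0.13, adjusted p = 7.29e-08) in the authors' deposited table. C5AR1, the receptor of C5a, was higher (1.73, SE 0.71, adjusted p = 0.000553) at a mean of 17.4 in the authors' deposited table. Of 29 measured genes that build or attach the GPI anchor, 4 fell and 0 rose by DESeq2 in the authors' deposited table, where 8 had an unadjusted p under 0.05 and the Wald test called 2, both lower. The share called was 13.8%, near the background. PIGA, the catalytic subunit of the first step, fell 1.87-fold (log2 fold change -0.90, SE 0.16, adjusted p = 1.38e-08), and PIGT, a subunit of the transamidase that attaches the anchor, fell 1.3-fold (-0.38, SE 0.11, adjusted p = 0.000672) in the authors' deposited table. In the authors' deposited table PIGG (-0.27, adjusted p = 0.035) and PIGV (-0.33, adjusted p = 0.0445) also passed, without a call in the Wald test. Of 17 measured ligands of natural killer cell receptors, 3 rose and 2 fell in the authors' deposited table. Called were 29.4% of them, against 12.5% of all genes, and 5 of the 17 reach a mean of 100. In the authors' deposited table MICB rose by 0.44 (SE 0.09, adjusted p = 2.11e-06) and MICA by 0.29 (SE 0.12, adjusted p = 0.0191), both ligands of the activating receptor NKG2D and close paralogs that could share reads. CDH1, a ligand of KLRG1, was higher (1.06, SE 0.39, adjusted p = 0.00125) and ICAM1, an adhesion ligand, lower (-0.33, SE 0.12, adjusted p = 0.00747) in the authors' deposited table. Of these 4 calls, that of MICB held in the Wald test.

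**Figure D3:**
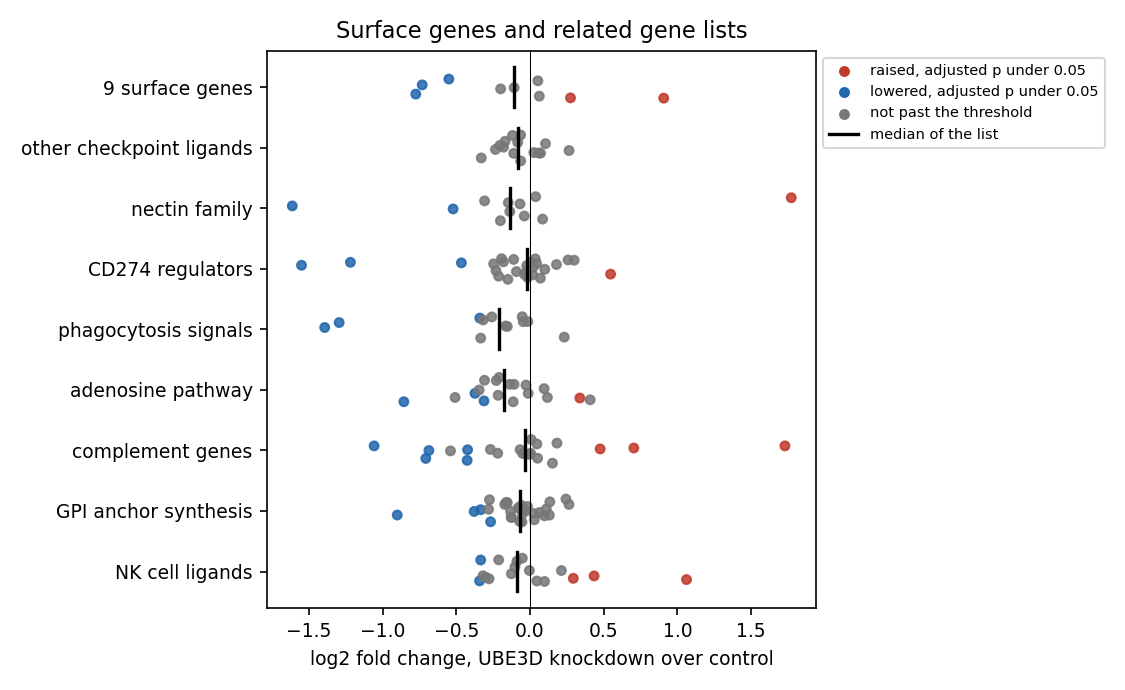
Log2 fold change of each measured gene in 9 lists, UBE3D knockdown over control, from the authors' deposited table; each point is a gene, spread at random within its row, and the black bar is the list's median. The 9 surface genes spread from -0.77 to 0.91, the other checkpoint ligands from -0.33 to 0.27, and all list medians lie between -0.21 and -0.02.

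**Figure D4:**
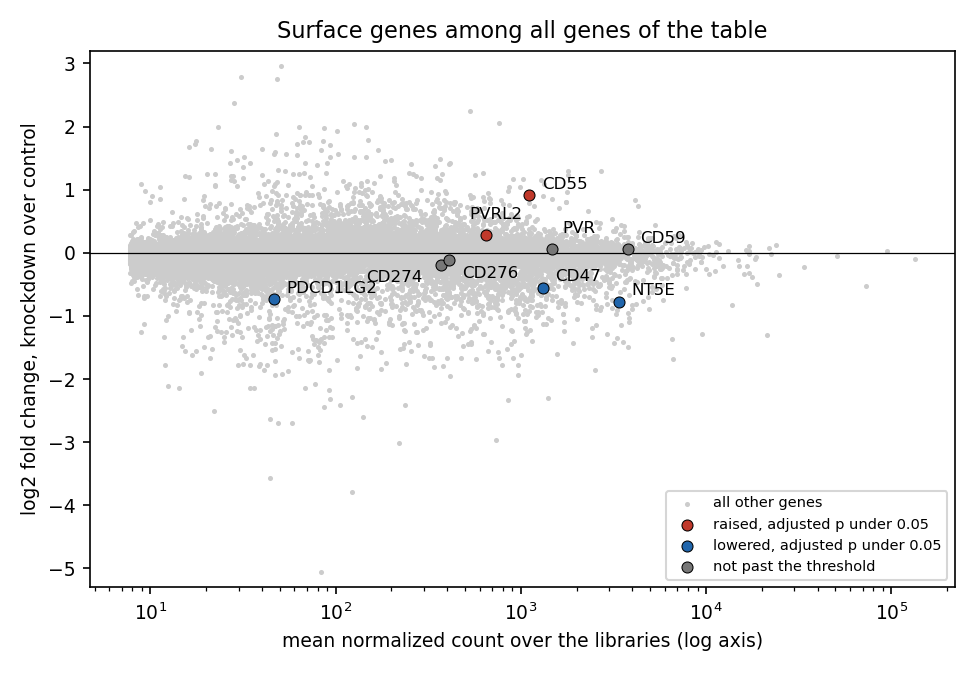
Log2 fold change against mean normalized count (log axis) for all 20115 genes in grey and the 9 surface genes in colour, from the authors' deposited table. PDCD1LG2 is the 1 member below a mean of 100, and 7.93% of the genes of similar mean changed more than CD47 and 6.9% more than NT5E.

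The DoG region of CD55 rose with its gene. The region was 1.68-fold higher in the authors' deposited table, a log2 fold change of 0.75 with an SE of 0.15 (adjusted p = 4.4e-07 by DESeq2), at a mean of 139 normalized counts. The CD59 region had 0.26 (SE 0.21, adjusted p = 0.164) at a mean of 44.3 in the authors' deposited table and did not pass. Of all DoG regions 28.8% were called, 12.7% raised and 16.1% lowered, and 30.6% of regions with a mean of 100 or more. The Wald test called 18.2% of regions, that of CD55 among them (adjusted p = 1.08e-05). The change of the CD55 region minus that of the gene was -0.16 (SE 0.21, 95% interval -0.56 to 0.25), with an adjusted p of 0.762 by a Wald test over 1798 region and host pairs, of which 8.68% passed. For CD59 the difference was 0.20 (SE 0.23, interval -0.25 to 0.65, adjusted p = 0.723). Neither region departed from its gene beyond these errors, and the intervals do not show equal change. The 2 tables may have been scaled apart, and both changes are shrunken. CD59's annotated end lies 2208 bases before C11orf91 on the same strand, which had a log2 fold change of 0.05 (adjusted p = 0.824) at a mean of 25.5 in the authors' deposited table, and the sources used here do not give the extent of the CD59 region.

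**Figure D5:**
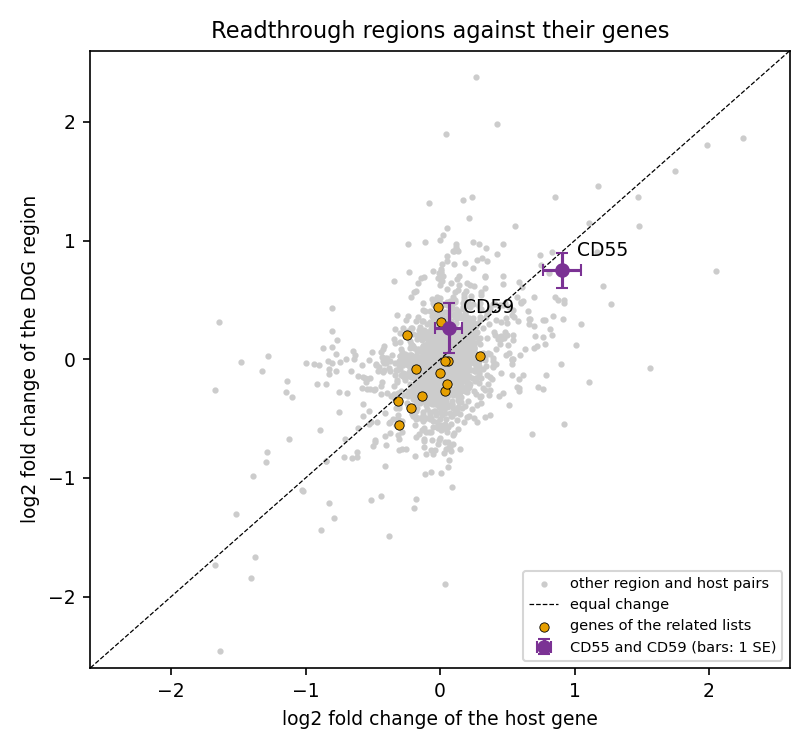
Log2 fold change of the DoG region against that of its host gene, UBE3D knockdown over control, for 1798 pairs from the authors' deposited tables, with 1 SE as bars for CD55 and CD59 and the line of equal change dashed. CD55 lies near the line at 0.91 for the gene and 0.75 for the region, and CD59 at 0.06 and 0.26.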

How the data were processed

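RNA of MDA-MB-231 cells was depleted of ribosomal RNA and sequenced as stranded pairs, per the labels' protocols, for 3 UBE3D knockdown and 3 control libraries. Per the submitters' processing notes, the tools were STAR 2.5.2b, cutadapt 1.8.1 and DESeq2 and the build hg38; how reads were counted, on which annotation and strand, is not given in the sources used here. Values in the authors' deposited tables are mean normalized counts (used as a signal), shrunken log2 changes with an SE, and p-values before and after adjustment. Recomputed Benjamini-Hochberg values matched the deposited ones within 1e-06. The shrinkage shows in that change over SE was smaller than the p-value implies for 20112 of 20112 genes and 2014 of 2014 DoG regions compared. Genes with a mean under 7.74 are not analysed here. With depth unknown, precision rests on the deposited SE.

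Members and gene lists were chosen with earlier results of these data known. Named were all members, UBE3D, and per list up to 4 called genes by p-value or up to 2 others; further genes (among them CMTM6, QPCTL, CEACAM19, C11orf91 and the markers) were chosen after their values were seen. Some results are not reported here because they name withheld items. Region minus host differences were tested against an SE combined as the root of the sum of squares, a step tested on simulated data. The 95% intervals are normal intervals from the deposited SE. Sequences came from GENCODE 29 transcripts and RefSeq promoters. The software was scipy 1.17.1, pandas 2.3.3 and numpy 2.4.6 in Python 3.11.15. Alternatives were other thresholds, a Wald test, a shift to a median of 0 and a minimum mean of 100.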

Additional observations from a re-analysis of the deposited data

How the results depend on the processing

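Of the 9 members, 2 raised and 3 lowered, the raised count was 1 at an adjusted p under 0.01, 1 in the Wald test on the deposited change and SE and 1 in that test with changes shifted to a median of 0, where PVRL2 had an adjusted p of 0.14 unshifted and 0.0796 shifted. The lowered count stayed at 3 or 2 in every setting, with PDCD1LG2 lost in both Wald tests (adjusted p = 0.327 and 0.371) and left out at a minimum mean of 100. CD55, NT5E and CD47 were called in every setting run. CD274 had an adjusted p of 0.0997 with the minimum mean of 100. Over the 8 related lists, 9 genes rose and 23 fell; 4 rose in the Wald test, and 14 fell at an adjusted p under 0.01 and 8 in the Wald test. No direction reversed, and the DoG regions of CD55 and CD59 kept their side of the threshold. The shift was 0.026 for genes and 0.014 for regions (log2). No paired analysis was possible because the tables hold no value per library, and leaving out single libraries was not run for the same reason.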

Other observations

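CD55 and CD46 belong to the complement regulator cluster of chromosome 1, which was described after its values were seen. C4BPB, CD55 and CD46 lie there in this order on the plus strand, with 221382 bases between C4BPB and CD55 and 365252 between CD55 and CD46. C4BPB (log2 fold change 0.70) and CD55 (0.91) rose and CD46 (-0.42) was lower in the authors' deposited table. C4BPA (-0.03, adjusted p = 0.875) and CR1 (-0.27, adjusted p = 0.243), also of this cluster, did not pass by DESeq2. Readthrough past genes of the adenosine pathway was also listed. In the authors' deposited table the regions of ENTPD5 (-0.55, adjusted p = 2.39e-05), PANX1 (-0.41, adjusted p = 0.000754), ADORA2B (-0.35, adjusted p = 0.000521) and ADK (-0.31, adjusted p = 0.0472) were lower by DESeq2. The call of ADK was lost in the Wald test (adjusted p = 0.175), and the other 3 held. None of these 4 regions passed the test of region minus gene over 1798 pairs (adjusted p from 0.599 to 0.935).

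Promoter sequences from RefSeq (GRCh38.p14, 250 bases before to 50 after the start) were found for 8 of the 9 members, with none for PDCD1LG2. The promoters of the 2 raised members and of the 2 lowered members that have an entry are shown, to set genes that moved alike side by side: chr1:207321428-207321727 (CD55, plus strand), chr19:44846047-44846346 (PVRL2, plus strand), chr3:108090982-108091281 (CD47, minus strand) and chr6:85449833-85450132 (NT5E, plus strand). Motifs were searched on both strands. They were the GC box (spelled GGGCGG), the CCAAT box (spelled as its name), the TATA box (with the letters TATAAA), the CRE core (read as TGACG) and the gamma-activated sequence (searched as TTCNNNGAA). Capitals mark every match.
CD55 promoter: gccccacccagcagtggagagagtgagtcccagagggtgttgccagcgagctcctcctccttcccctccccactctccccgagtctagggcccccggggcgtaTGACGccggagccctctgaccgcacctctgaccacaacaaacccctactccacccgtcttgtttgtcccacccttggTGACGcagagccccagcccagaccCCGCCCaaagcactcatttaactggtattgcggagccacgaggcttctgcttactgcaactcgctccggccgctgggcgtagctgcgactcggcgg
PVRL2 promoter: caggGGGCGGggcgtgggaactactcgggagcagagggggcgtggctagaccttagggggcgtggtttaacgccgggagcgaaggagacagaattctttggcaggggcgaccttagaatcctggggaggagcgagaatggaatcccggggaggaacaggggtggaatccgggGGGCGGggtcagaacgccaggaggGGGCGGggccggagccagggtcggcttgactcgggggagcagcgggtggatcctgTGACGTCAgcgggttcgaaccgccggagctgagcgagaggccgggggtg
CD47 promoter: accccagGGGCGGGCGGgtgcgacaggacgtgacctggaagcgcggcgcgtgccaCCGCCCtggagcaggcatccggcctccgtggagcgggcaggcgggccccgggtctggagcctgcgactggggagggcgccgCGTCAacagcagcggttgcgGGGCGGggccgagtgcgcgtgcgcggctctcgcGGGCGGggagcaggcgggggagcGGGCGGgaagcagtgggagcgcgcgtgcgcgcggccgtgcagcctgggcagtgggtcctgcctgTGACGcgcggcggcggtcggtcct
NT5E promoter: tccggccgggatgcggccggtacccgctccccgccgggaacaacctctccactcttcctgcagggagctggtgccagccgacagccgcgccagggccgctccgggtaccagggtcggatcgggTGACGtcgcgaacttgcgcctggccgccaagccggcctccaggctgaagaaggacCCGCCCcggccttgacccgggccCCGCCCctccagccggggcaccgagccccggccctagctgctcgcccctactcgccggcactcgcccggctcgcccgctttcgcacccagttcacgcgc
A GC box lies in each of the 4, in 45.0% of all 35116 promoter entries and in 79.2% of genes with an entry and a mean of 100 or more. It also lies in entries of CD274, CD276 and CD59, which did not pass, but not in that of PVR. The CRE core lies in each of the 4, at 2 places in CD55, 2 in CD47, 2 that overlap in PVRL2 and 1 in NT5E. It lies in 24.6% of all entries and in 42.3% of genes with an entry and a mean of 100 or more. It was found in none of the entries of CD274, CD276, PVR and CD59, the 4 members that did not pass. Over all genes with a promoter entry and a mean of 100 or more, 18.1% of the 3215 with the CRE core were called, against 21.3% of the 4394 without it. The gamma-activated sequence lies in the CD274 promoter and in CD59 entries, and in 7.66% of all entries. A match is a description of letters, not of binding.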
